A study of Mus musculus with 6 samples.

Results

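The YAP/TAZ group comprised 10 genes: the co-activators Yap1 and Wwtr1 (the gene of TAZ), the DNA-binding partners Tead1 and Tead2, the pathway inhibitors Lats2 and Amotl2, and the transcriptional targets Ctgf, Cyr61, Ankrd1 and Axl. They were taken by symbol from the 24422 gene rows of the count tables, and all 10 were found. The tables held 3 control kidneys and 3 TfR1KO;KspCre kidneys of C57BL/6 mice at postnatal day 60 (P60), all fed an iron-sufficient diet (220 ppm iron), and the libraries were made from whole kidney. Controls were labelled wild type, and the knockout carried floxed alleles of Tfr1 (Tfrc, transferrin receptor 1, which carries transferrin-bound iron into cells) deleted by a Cre under the Ksp-cadherin promoter. That promoter is active in the distal nephron and not in every kidney cell. The comparison asked how the transcripts of the kidney differed at P60 between control animals and animals without the receptor in those tubules.

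YAP and TAZ are transcriptional co-activators that shuttle between cytoplasm and nucleus. In the Hippo pathway, the MST kinases activate the LATS kinases, and LATS phosphorylation holds YAP and TAZ in the cytoplasm. When they are not phosphorylated they enter the nucleus, where they act through TEAD factors on genes such as Ctgf and Cyr61. Lats2 and Amotl2 are themselves targets and act as feedback inhibitors. In the kidney the pathway is known for its role in nephron and duct development, in tubular repair and in fibroblast activation. Its activity is set largely by phosphorylation and location of the proteins, neither of which is measured by transcript counts.

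Among the 10 genes, 4 rose in the knockout: Tead2, Cyr61, Ankrd1 and Axl, by 3.81-, 4.95-, 4.04- and 3.93-fold. 0 were called lower in edgeR, limma-voom or the DESeq2 Wald test, and 0 were lower at an unadjusted p under 0.05 in edgeR. The mean of Ctgf was 3.77-fold higher in the knockout by the fit, but 1 knockout library sat within the control range and the gene did not pass the test. Yap1, Wwtr1, Tead1, Lats2 and Amotl2 did not pass, with log2 fold changes between −0.08 and 0.39. A gene was called here when its adjusted p in edgeR's quasi-likelihood test (Benjamini-Hochberg over 15171 tested genes) was under 0.05. By this rule 17.2% of all tested genes were called, 10.6% higher and 6.64% lower. The median log2 fold change was 1.15 over the 10 genes and 0.02 over all tested genes. Because the 10 genes were chosen with earlier results of these data known, this contrast is not a test. The same holds for the medians of the gene lists below.

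**Figure D1:**
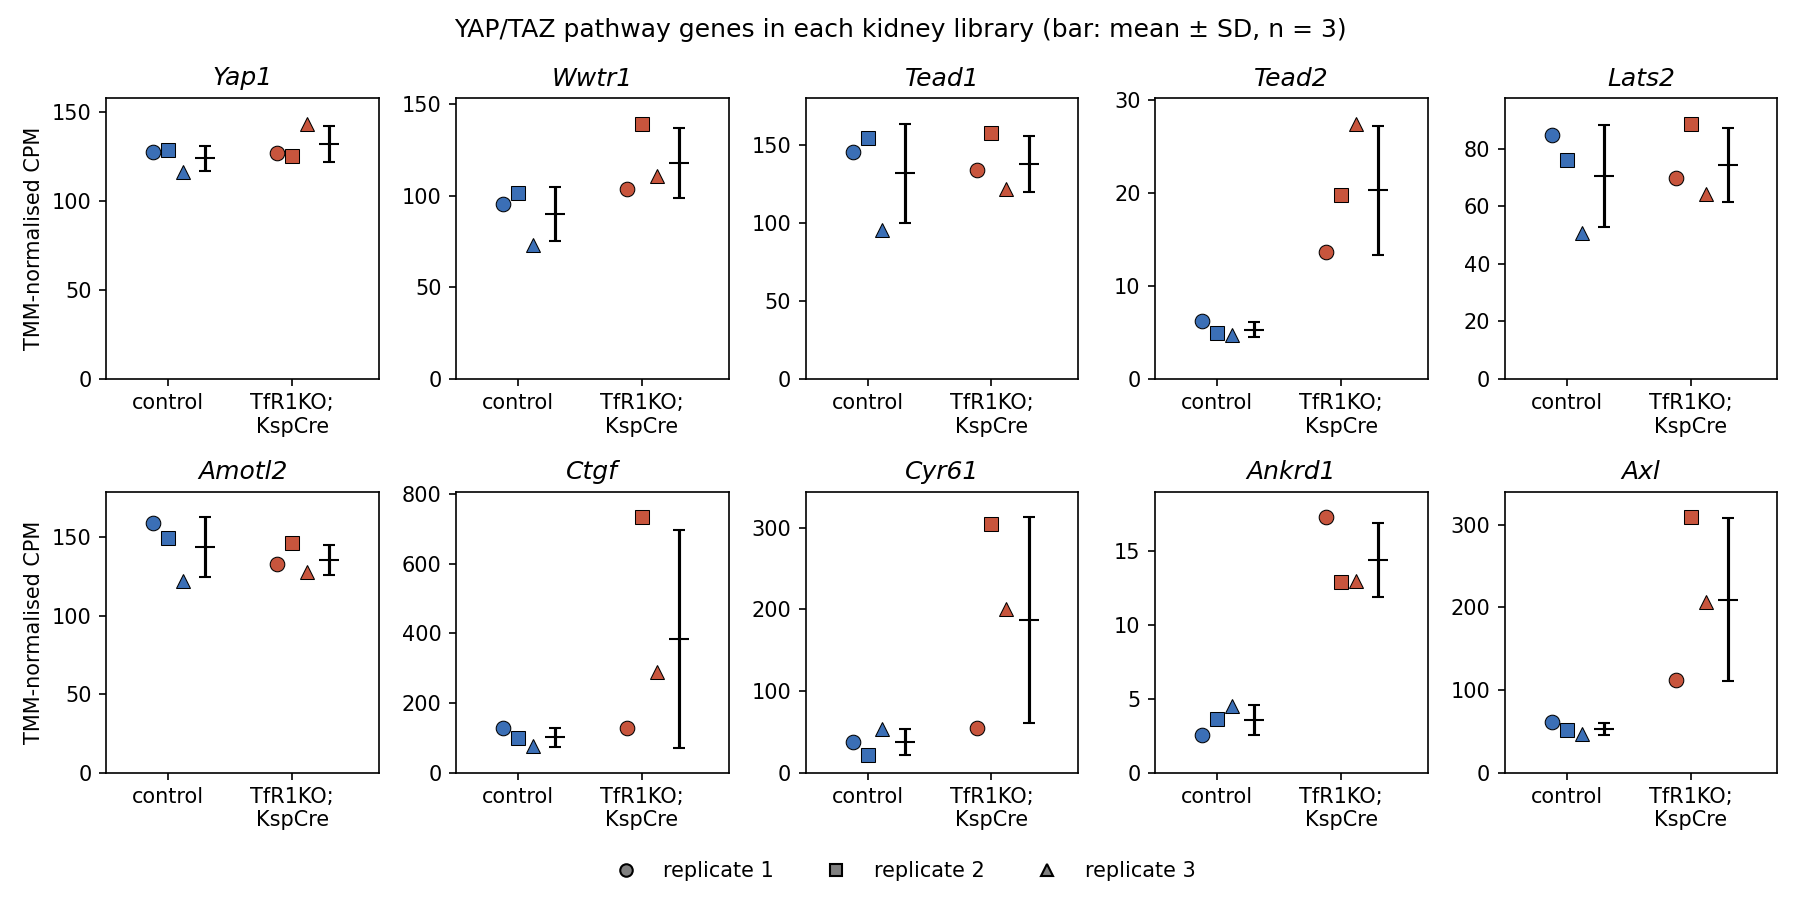
Normalised expression of the 10 genes in each kidney library, as CPM (counts scaled to a common library total, TMM-normalised, y axis starting at 0) by genotype. Each point is 1 library, marker shape gives the replicate number, and bars are mean ± SD (n = 3). Tead2, Ankrd1, Axl, Cyr61 and Wwtr1 have every knockout point above every control point, and knockout replicate 2 is the highest for Ctgf, Cyr61 and Axl.

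Library totals ran from 11501053 to 21001341 counts, the lowest in knockout replicate 3, and the 10 genes held at least 51 counts in every library. On the first principal component, which held 69.4% of the variance, controls lay between −72.6 and −53.2, knockout replicate 1 at 9.67 and the other two knockouts at 82.1 and 88.6. Control replicate 2 had 52 counts of the X-inactivation transcript Xist and 3980 counts of Y-linked genes, against at least 10458 and at most 5 in the others, so it differed from them in sex-linked transcripts. Knockout replicate 3 had 2.59% of its counts on the ribosomal precursor Rn45s, against 0.506% to 0.745% elsewhere. Tfrc itself was 138.5, 167.9 and 62.0 CPM in controls and 214.4, 86.0 and 40.6 CPM in knockouts (log2 fold change −0.11 ± 0.62 (SE), edgeR adjusted p = 0.911). Only exons 3 and 4 are deleted and only in some cells, so this gene-level count did not check the genotype labels.

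The promoters of the 3 called targets and of Tead2 are shown because these are the genes that rose, and because TEAD factors bind the motif GGAATG. Each run is 300 bases, from 250 before to 50 after the transcription start, in RefSeq's GRCm38.p6, written 5′ to 3′ on the gene's strand with GGAATG or its reverse complement CATTCC in capitals. The Cyr61 promoter lies at chr3:145649936-145650235 on the minus strand, that of Ankrd1 at chr19:36119795-36120094 on the minus strand, that of Axl at chr7:25788684-25788983 on the minus strand and that of Tead2 at chr7:45215542-45215841 on the plus strand.
Cyr61: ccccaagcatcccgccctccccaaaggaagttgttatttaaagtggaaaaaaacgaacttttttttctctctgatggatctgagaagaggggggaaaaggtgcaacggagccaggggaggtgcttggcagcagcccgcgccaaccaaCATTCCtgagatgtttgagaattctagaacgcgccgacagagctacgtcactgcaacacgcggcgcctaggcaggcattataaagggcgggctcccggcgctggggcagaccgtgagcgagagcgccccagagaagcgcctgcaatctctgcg
Ankrd1: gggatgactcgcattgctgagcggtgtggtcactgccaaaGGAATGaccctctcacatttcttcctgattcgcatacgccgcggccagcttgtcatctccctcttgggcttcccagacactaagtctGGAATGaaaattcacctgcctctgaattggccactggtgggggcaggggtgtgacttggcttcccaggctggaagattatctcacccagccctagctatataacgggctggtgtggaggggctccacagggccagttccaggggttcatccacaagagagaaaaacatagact
Axl: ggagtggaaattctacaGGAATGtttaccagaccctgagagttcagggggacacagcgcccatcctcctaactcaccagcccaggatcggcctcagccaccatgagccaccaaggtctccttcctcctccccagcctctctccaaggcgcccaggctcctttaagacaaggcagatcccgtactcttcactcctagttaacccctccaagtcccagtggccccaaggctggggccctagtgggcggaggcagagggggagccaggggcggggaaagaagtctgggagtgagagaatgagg
Tead2: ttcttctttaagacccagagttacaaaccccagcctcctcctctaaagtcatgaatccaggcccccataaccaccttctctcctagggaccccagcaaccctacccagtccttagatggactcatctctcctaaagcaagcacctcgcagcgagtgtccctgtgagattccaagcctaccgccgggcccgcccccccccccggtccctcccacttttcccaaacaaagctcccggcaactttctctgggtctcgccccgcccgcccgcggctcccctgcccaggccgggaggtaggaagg
Cyr61 held the motif on the opposite strand 103 bases before its start. Ankrd1 held 2 copies, 210 and 123 bases before the start, and Axl 1 copy 233 bases before it. The Tead2 window held none of these letters.

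The table matched 8 of the 10 genes, without Ctgf and Tead1, and 7 of the 8 held GGAATG on either strand in at least 1 promoter, all but Tead2. The motif was present in 16.6% of 27025 gene symbols and in 14.7% of 32851 promoters of the same length. Besides the promoters shown, the motif lay 141 bases before the start of Yap1, 65 bases before that of Amotl2 and 170 and 136 bases before the 2 starts of Wwtr1, which share it. In Lats2 it lay 5 bases after 1 of its 2 starts. In the gene lists described further on, the motif was present in 2 of 10 other targets, 1 of 6 relatives of the targets, 3 of 15 kinases and scaffolds and 5 of 5 TEAD partners and LATS antagonists with an entry. The 7 genes with the motif were the 3 called targets and 4 genes that did not pass the test. No promoter of the 8 held the AP-1 motif TGANTCA or the CArG box bound by serum response factor, searched on both strands, which were present in 7.81% and 1.63% of all promoters. A match of letters is not a measured binding site.

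The co-activators were compared first. Yap1 (mm9 chromosome 9, 7931999 to 8004596) was 127.7, 128.8 and 116.2 CPM in controls and 127.2, 125.3 and 143.6 CPM in knockouts, and the groups overlapped. Its log2 fold change was 0.09 ± 0.13 (SE; 95% confidence interval −0.23 to 0.40), with an edgeR adjusted p of 0.653. Wwtr1 (chromosome 3, 57259571 to 57379832) was 95.3, 101.4 and 73.2 CPM in controls and 103.8, 139.5 and 110.8 CPM in knockouts. Every knockout library was above every control, the nearest pair being 101.4 and 103.8 CPM. The log2 fold change of 0.39 ± 0.19 (SE; interval −0.05 to 0.83) did not pass the test (edgeR adjusted p = 0.165). Counted per kb of exon, TAZ transcripts were fewer than YAP transcripts in every library. Without the division by length, Wwtr1 counts exceeded Yap1 counts in knockout replicate 2 (ratio 1.11) and in no other library. The Wwtr1 to Yap1 ratio was 0.652, 0.688 and 0.551 in controls and 0.713, 0.973 and 0.674 in knockouts, and the ranges overlapped. This difference, 0.31 on the log2 scale, gave p = 0.2 in an exact two-sided permutation test, whose smallest possible p with 3 against 3 is 0.1.

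The TEAD factors bind DNA and carry YAP and TAZ to their targets. Tead2 (chromosome 7, 52471123 to 52489005) was 6.27, 4.88 and 4.74 CPM in controls and 13.6, 19.7 and 27.4 CPM in knockouts. These values rest on 79 to 126 counts in controls and 277 to 393 in knockouts. The lowest knockout was more than 2-fold above the highest control. The gene rose by 1.93 ± 0.30 (SE; interval 1.21 to 2.65) on the log2 scale, with an edgeR adjusted p of 0.0277. Tead1 (chromosome 7, 119822832 to 120050319) was 145.4, 154.6 and 95.6 CPM in controls and 133.7, 157.3 and 121.8 CPM in knockouts. The groups overlapped, and the log2 fold change of 0.06 ± 0.22 (SE; interval −0.45 to 0.58) had an edgeR adjusted p of 0.853.

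Set per kb beside their relatives Tead3 and Tead4, the TEAD transcripts were given as shares of their sum, in which a share also moves when another gene's level does. Tead2 held 6.96%, 5.45% and 7.29% of the TEAD level per kb in controls and 13.9%, 16.6% and 23.8% in knockouts. Tead1 held 54.3%, 58.0% and 49.4% in controls and 45.8%, 44.6% and 35.6% in knockouts. The ranges of both shares were apart. Tead3 held 33.1% to 41.4% in controls and 35.9% to 38.1% in knockouts, which overlapped, and Tead4 was at or below 4.86% in every library. The level of Tead3 was 23.5 to 26.7 CPM in controls and 30.8 to 38.2 CPM in knockouts, which did not overlap, but the log2 fold change of 0.48 ± 0.14 (SE) did not pass the test (edgeR adjusted p = 0.0586). The lower Tead1 shares stood beside overlapping Tead1 levels. Tead1 was above Tead2 per kb in all 6 libraries, and the shares were not tested.

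**Figure D2:**
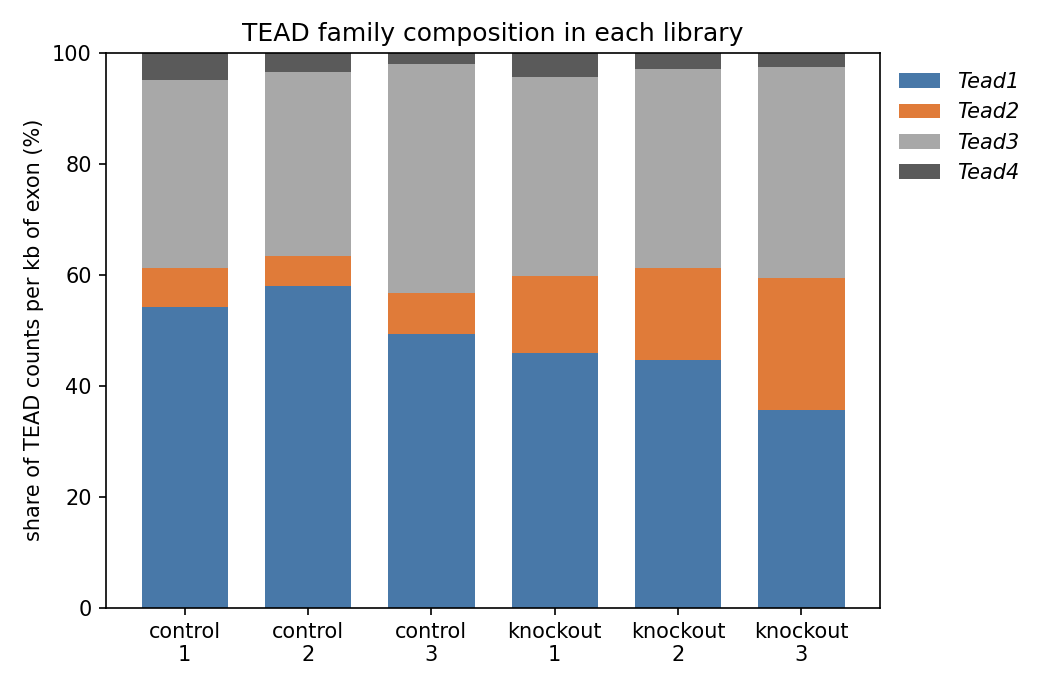
Share of the summed level per kb of the 4 TEAD genes held by each, in percent (y axis), in each library (x axis). The Tead2 share is 5.45% to 7.29% in controls and 13.9% to 23.8% in knockouts, and Tead1 is larger than Tead2 in every library.

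The inhibitors that are also targets of the pathway did not pass the test. Lats2 (chromosome 14, 58260914 to 58377225), a kinase that phosphorylates YAP and TAZ, was 84.7, 76.1 and 50.6 CPM in controls and 69.7, 88.7 and 64.4 CPM in knockouts. Amotl2 (chromosome 9, 102619002 to 102635748), an angiomotin that binds YAP at junctions, was 159.2, 149.7 and 122.3 CPM in controls and 132.9, 146.3 and 128.1 CPM in knockouts. For both, the groups overlapped. The log2 fold changes were 0.08 ± 0.23 (SE; interval −0.46 to 0.61; edgeR adjusted p = 0.827) for Lats2 and −0.08 ± 0.15 (SE; interval −0.45 to 0.28; adjusted p = 0.720) for Amotl2. The sign of Lats2 and of Tead1 turned when control replicate 3 (−0.12 and −0.13) or knockout replicate 2 (−0.073 and −0.046) was left out, and the sign of Amotl2 turned with scaling by library size alone (0.19).

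Of the targets, Cyr61 and Ctgf encode secreted matrix-associated proteins of the CCN family. Cyr61 (chromosome 3, 145309935 to 145312949) was 38.0, 21.5 and 53.85 CPM in controls and 54.6, 305.2 and 201.0 CPM in knockouts. Knockout replicate 1 lay just above the highest control, and the other two knockouts were far above it. The log2 fold change was 2.31 ± 0.63 (SE; interval 0.81 to 3.80) and the edgeR adjusted p was 0.0491, close to the threshold. In limma-voom the adjusted p was 0.0634. Ctgf (chromosome 10, 24315248 to 24318489) was 129.7, 100.4 and 75.5 CPM in controls and 128.7, 734.1 and 288.0 CPM in knockouts. Knockout replicate 1 lay inside the control range. The log2 fold change was 1.91 ± 0.60 (SE; interval 0.48 to 3.34) with an edgeR adjusted p of 0.0669. It ranged from 1.03 without knockout replicate 2 to 2.32 without knockout replicate 1, and in the latter fit it was called (adjusted p = 0.00935). The DESeq2 Wald test (adjusted p = 0.00575) and scaling by library size alone (adjusted p = 0.0437) also called it. Its antisense lincRNA Gm15270 covers 22.5% of the exon bases of Ctgf, and since the strand setting of the counting is not given in the sources used here, the Ctgf count is uncertain to that extent.

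Ankrd1, an ankyrin-repeat protein of the nucleus and sarcomere, and Axl, a receptor tyrosine kinase of the TAM family, both rose. Ankrd1 (chromosome 19, 36186455 to 36194334) was 2.54, 3.64 and 4.50 CPM in controls and 17.3, 12.9 and 12.95 CPM in knockouts, from 51 to 75 and 169 to 352 counts, and every knockout was above every control. It rose by 2.01 ± 0.29 (SE; interval 1.33 to 2.70) on the log2 scale, with an edgeR adjusted p of 0.0271. Axl (chromosome 7, 26542292 to 26573724) was 61.4, 51.2 and 47.0 CPM in controls and 112.5, 308.8 and 206.6 CPM in knockouts. The groups did not overlap, and knockout replicate 1 was the lowest knockout, as for Cyr61 and Ctgf. Axl rose by 1.98 ± 0.36 (SE; interval 1.13 to 2.83), with an edgeR adjusted p of 0.0295. The order of the knockout libraries differed between the called genes: replicate 2 was highest for Cyr61 and Axl, replicate 3 for Tead2 and replicate 1 for Ankrd1.

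Groups did not overlap for 5 of the 10 genes (the 4 called and Wwtr1), all higher in the knockout, against 46.0% of all tested genes in either direction. Of the 15171 tested genes, 3614 had every knockout above every control and 3368 had every knockout below. The 4 called genes kept their direction, and an unadjusted p under 0.05, in every fit that left out 1 library. None of them passed the adjusted threshold when any 1 control or knockout replicate 2 or 3 was left out, with adjusted p from 0.0547 to 0.149. Without control replicate 2, the library that differed in sex-linked transcripts, the log2 fold changes were 1.87 for Tead2, 2.01 for Cyr61, 2.02 for Ankrd1 and 1.94 for Axl. The same fit called 0 of all tested genes in edgeR, with 4270 at an unadjusted p under 0.05.

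**Figure D3:**
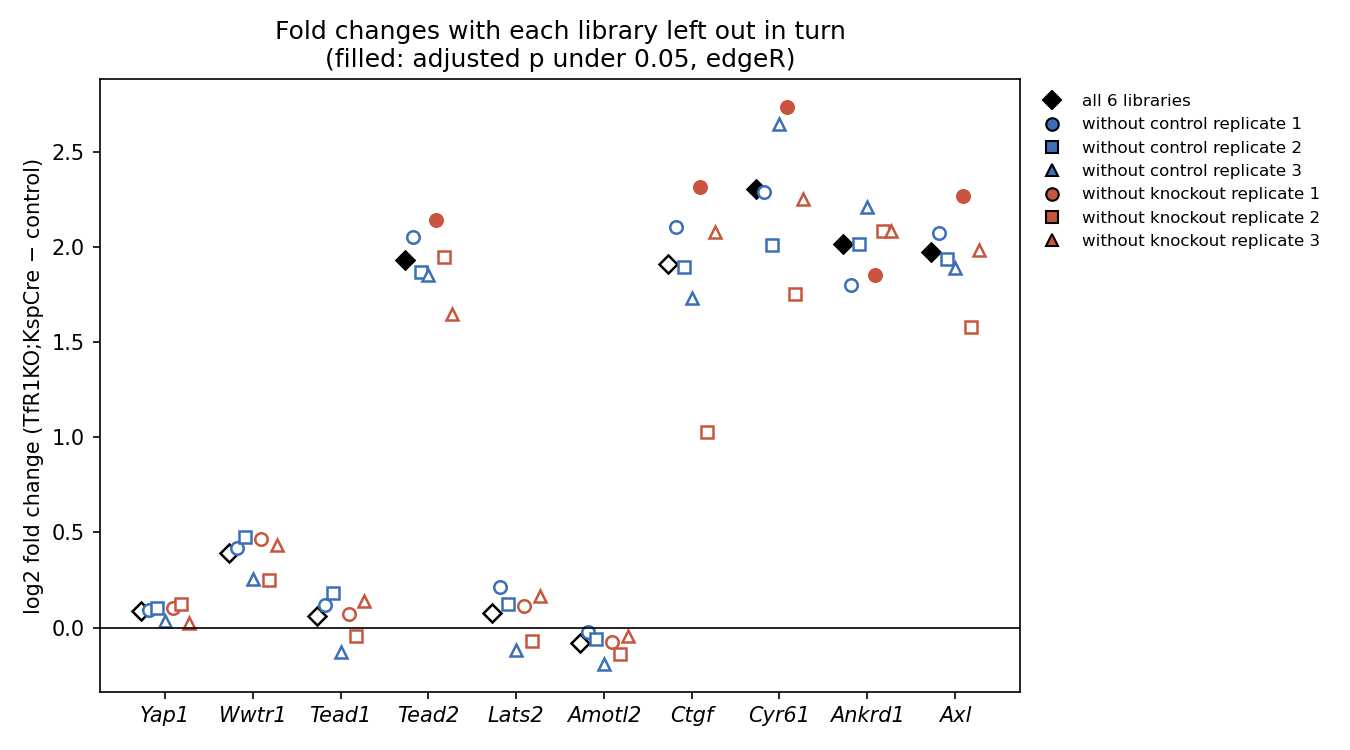
Log2 fold change (y axis, TfR1KO;KspCre minus control) of each gene (x axis) with all 6 libraries and with each left out in turn. Diamonds are all 6 libraries, blue and red mark which group lost a replicate, marker shape gives its number, and filled symbols passed the adjusted threshold in edgeR. Ctgf moves most, from 1.03 without knockout replicate 2 to 2.32 without knockout replicate 1.

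Levels per kb of exon allow the genes to be ranked within a group. In controls Ctgf was highest at 42.4 ± 11.3 CPM per kb (SD, n = 3), followed by Yap1 (29.7 ± 1.68), Amotl2 (28.2 ± 3.75), Wwtr1 (18.8 ± 3.11), Cyr61 (18.6 ± 7.99), Tead1 (12.6 ± 3.04), Axl (12.4 ± 1.73) and Lats2 (10.6 ± 2.66). Ankrd1 (2.02 ± 0.558) and Tead2 (1.51 ± 0.241) were the lowest. Neighbours whose ranges overlapped were Yap1 and Amotl2, each next pair from Wwtr1 down to Lats2, and Ankrd1 and Tead2. In knockouts Ctgf remained first (159.6 ± 130.6), with Cyr61 (92.2 ± 62.1) and Axl (48.9 ± 22.9) now ahead of Yap1 (31.6 ± 2.42). Each of these overlapped the next in that order. Amotl2 (26.6 ± 1.85) and Wwtr1 (24.7 ± 3.96) came next and overlapped each other, followed by Tead1 (13.2 ± 1.73) and Lats2 (11.1 ± 1.92). Ankrd1 (8.14 ± 1.42) and Tead2 (5.76 ± 1.97) were again the lowest, and each neighbouring pair from Tead1 down overlapped.

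In the list of 18 kinases and scaffolds, all tested, 1 rose and none was called lower (1 at an unadjusted p under 0.05, 0 in limma-voom and the DESeq2 Wald test), the median log2 fold change being 0.18 with a range of −0.62 to 1.27. Over all tested genes 17.2% were called, 10.6% higher and 6.64% lower, with a median of 0.02. Values after ± are standard errors. The gene that rose was Map4k4, a kinase that can phosphorylate LATS, at 43.5 to 71.6 CPM in controls and 99.8 to 176.2 CPM in knockouts (1.27 ± 0.27 (SE), edgeR adjusted p = 0.0331). The uncalled genes of largest size were the FERM-domain scaffold Frmd6 (1.19 ± 0.39; adjusted p = 0.0724) and the angiomotin Amotl1 (1.01 ± 0.30; adjusted p = 0.0605). In the list of 7 TEAD partners and LATS antagonists, edgeR called 0, with 4 at an unadjusted p under 0.05, limma-voom called 0 and the DESeq2 Wald test called 3. Of all 15171 tested genes, edgeR called 2612, with 5862 at an unadjusted p under 0.05, limma-voom called 2030 and the Wald test 4882. All 7 log2 fold changes were above 0 under each of the 4 scalings tried, with a median of 0.48 in the main fit. Under 1 of these scalings, library size alone, the median of all tested genes was itself 0.29. The log2 fold change of Tead4 turned to −0.10 without control replicate 3. The largest of the 7 were the TEAD cofactor Vgll3 (1.92 ± 0.62; edgeR adjusted p = 0.0699) and the LIM protein Wtip (1.13 ± 0.34; edgeR adjusted p = 0.0591). The log2 fold changes of Vgll3 and Frmd6 were 1.06 and 0.71 without knockout replicate 2, and that of Wtip was 0.63 without knockout replicate 3.

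A list of 16 other genes often used as YAP/TAZ targets gave 3 that rose and none called lower among 15 tested, the median log2 fold change being 0.59. Over all tested genes 17.2% were called and 10.6% were called higher, so a count of 3 in 15 is near that background. Foxf2 was not tested because its counts were at most 12. Ccdc80, a matrix protein, was 9.42 to 14.4 CPM in controls and 26.8 to 115.1 CPM in knockouts and rose by 2.78 ± 0.53 (SE; edgeR adjusted p = 0.0303). Myof, a ferlin of the plasma membrane, rose by 1.60 ± 0.41 (adjusted p = 0.0442), and its log2 fold change was 1.04 without knockout replicate 2. F3, tissue factor, the initiator of coagulation, rose by 1.32 ± 0.25 (adjusted p = 0.0303). Of the uncalled genes Tgfb2, a transforming growth factor, had 1.64 ± 0.55 (adjusted p = 0.0753) and Nt5e, an ectonucleotidase, −0.89 ± 0.45 (adjusted p = 0.192). Control replicate 2 held 129.9 CPM of Nt5e, against 36.6 and 47.9 CPM in the other controls and 35.9 to 40.2 CPM in knockouts, and without it the log2 fold change was −0.14. The log2 fold change was below 0 for 4 of the 15, of which none was called. Igfbp3, 1 of the 4, had every knockout below every control. It was 251.7 to 335.5 CPM in controls and 63.8 to 230.4 CPM in knockouts (−0.84 ± 0.46 (SE), edgeR adjusted p = 0.216).

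Among the relatives of Ctgf, Cyr61, Axl and Ankrd1, 3 of the 7 tested genes rose and none was called lower, the median log2 fold change being 1.46, beside 10.6% called higher and a median of 0.02 over all tested genes. Nov, another CCN protein, was 0.660 to 1.14 CPM in controls and 1.18, 17.1 and 21.5 CPM in the knockouts, so replicate 1 lay just above the control range (3.96 ± 0.99 (SE), edgeR adjusted p = 0.0416). Tyro3, another TAM receptor, rose by 1.55 ± 0.41 (adjusted p = 0.0451), and Pros1, the anticoagulant protein S and a ligand of TAM receptors, by 1.46 ± 0.25 (adjusted p = 0.0285). In limma-voom only 1 of the 7 passed. Wisp1, also a CCN protein, had 1.57 ± 0.45 (edgeR adjusted p = 0.0555), and the TAM receptor Mertk had −0.34 ± 0.19 (edgeR adjusted p = 0.235). Without knockout replicate 2, the log2 fold changes were 0.88 for Wisp1, 0.98 for Tyro3 and −0.51 for Mertk, and without control replicate 2 that of Mertk was −0.20. Wisp2 and Ankrd2 did not pass the expression filter and were not tested. Wisp2, a CCN protein, had 5, 0 and 9 counts in controls and 3, 252 and 28 counts in knockouts, and Ankrd2 at most 6 counts in any library.

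**Figure D4:**
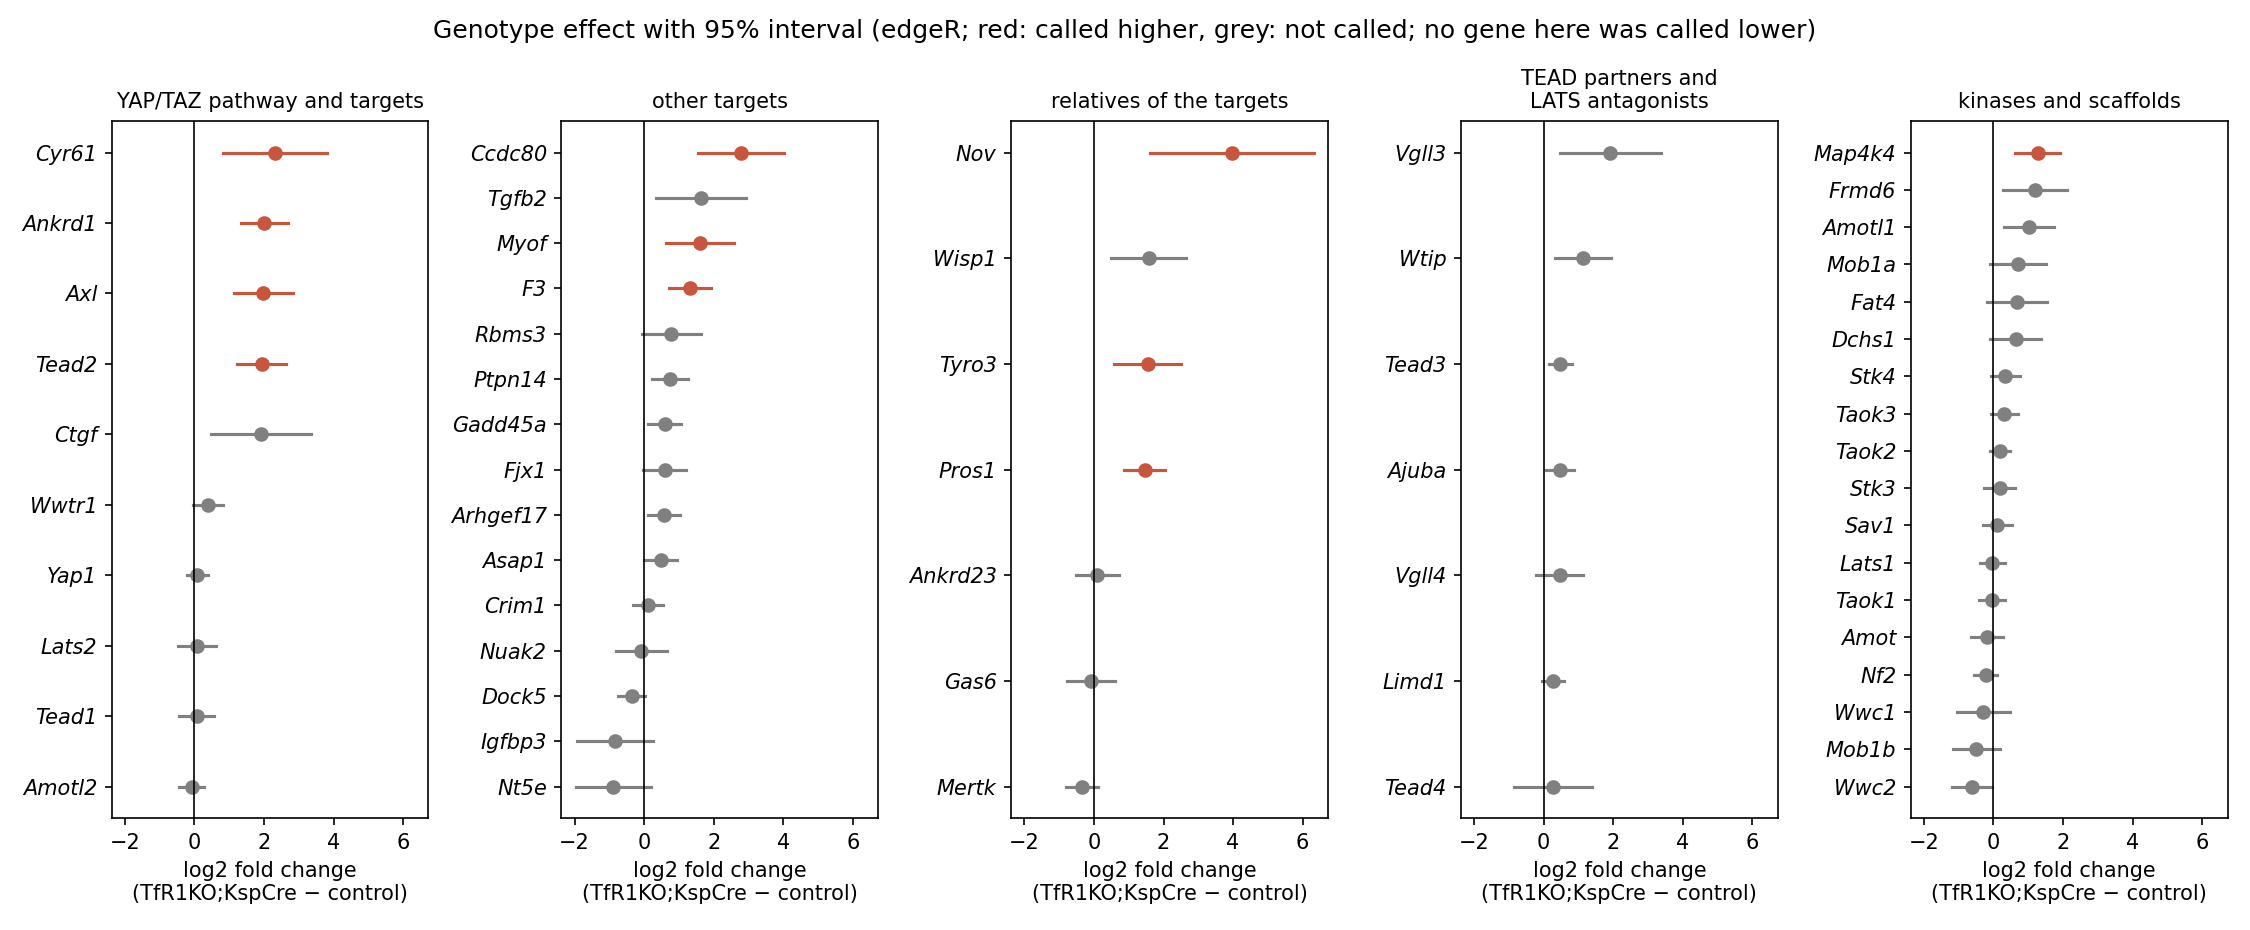
Log2 fold change (TfR1KO;KspCre minus control) with its 95% confidence interval for the 10 genes and the genes of the lists (x axis, 1 row per gene, panels by list). Points are the edgeR estimates and lines the intervals, red for genes called higher at an adjusted p under 0.05 and grey for genes not called. The red genes run from 1.27 for Map4k4 to 3.96 for Nov, and no gene shown was called lower.

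Several markers of kidney cell types moved in the same comparison. The summed level of 7 fibroblast markers was 291.0 to 635.9 CPM in controls and 969.0 to 3713 CPM in knockouts, and 3 of the 7 were called higher (Col1a1, Col1a2 and Col3a1). In knockout replicate 1 the sum was above the controls through the collagens and Pdgfrb, while Pdgfra (61.6 CPM) and Dcn (61.9 CPM) lay inside the control ranges and Lum (3.88 CPM) below every control. The sum of 7 macrophage markers was 172.3 to 193.8 CPM against 521.9 to 1852 CPM, with 6 of the 7 called higher. The uncalled marker, Csf1r, was 94.0 to 117.3 CPM in controls and 105.6, 207.7 and 72.1 CPM in knockouts (edgeR adjusted p = 0.601). The sum of 6 proximal tubule markers was 8426 to 11727 CPM against 1348 to 3948 CPM, and all 6 fell. The sum of 5 markers of the thick ascending limb, a distal segment, was 11183, 11143 and 4984 CPM in controls and 6548, 758.0 and 1043 CPM in knockouts. Knockout replicate 1 lay inside the control range and the other two knockouts were far below it. edgeR called 0 of the 5 (1 at an unadjusted p under 0.05, 1 called by the DESeq2 Wald test and 0 by limma-voom), and their median log2 fold change was −1.46. Cldn16 alone of the 5 had a log2 fold change above 0 (0.65 ± 0.43 (SE), edgeR adjusted p = 0.304), with 34.5 CPM in knockout replicate 3 against at most 15.7 CPM in controls. For 6 endothelial markers the sum was 352.4 to 683.0 CPM against 646.6 to 777.4 CPM, with 0 called in edgeR (2 at an unadjusted p under 0.05), 1 by the Wald test and 0 by limma-voom. For 6 podocyte markers it was 547.5 to 685.5 CPM against 672.2 to 977.1 CPM, with 1 called higher (Synpo). Over all tested genes edgeR called 17.2%, 10.6% higher and 6.64% lower, so the podocyte count is near that background. No marker was at 0 in any library. Both the fibroblast and the macrophage sums were highest in knockout replicate 2, the library in which Ctgf, Cyr61 and Axl were also highest, and lowest among the knockouts in replicate 1. In whole kidney, fewer or more cells of a type and a different amount of RNA per cell cannot be told apart, and the part of these markers' cells in the levels of the YAP/TAZ genes was not tested.

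**Figure D5:**
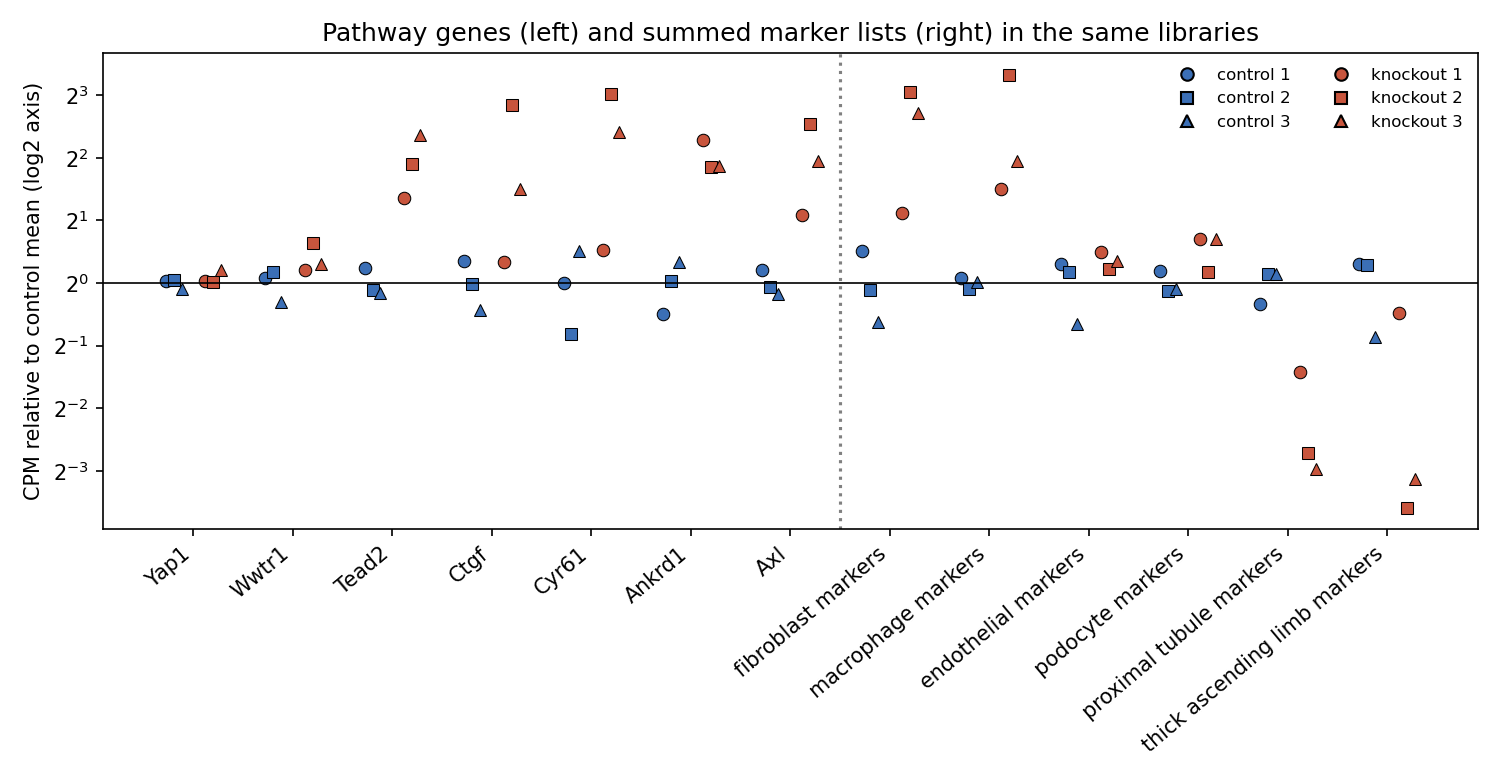
Level of 7 of the genes (left) and summed level of each cell type marker list (right) in each library, as CPM relative to the control mean on a log2 axis. Blue points are controls, red points knockouts, and marker shape gives the replicate number. Fibroblast and macrophage sums are higher in all 3 knockouts than in any control, and the proximal tubule sum is lower.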

How the data were processed

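Poly-A RNA of 3 control and 3 TfR1KO;KspCre kidneys was sequenced as single 100-base reads. The authors deposited raw counts per gene; the submitters' processing notes name CASAVA 1.8.2, Trimmomatic, TopHat2 2.0.11, HTSeq and the build mm9. The gene annotation and strand setting are not given in the sources used here. Groups and replicate numbers came from the sample titles, and the design calls the libraries biological replicates.

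Counts were tested in R 4.3.3 with edgeR 4.0.16 (TMM scaling, default expression filter with a minimum count of 10 and a minimum total of 15, quasi-likelihood test in its older version, no covariate), and p was adjusted by Benjamini-Hochberg over all 15171 tested genes of 24422. Standard errors were derived from the test statistic. The script was tested on simulated data. CPM per kb used the summed exon length of GENCODE M1 coding transcripts. Sequences came from RefSeq (GRCm38.p6), and coordinates of genes are mm9. All 100-base words of the 10 genes' longest coding transcripts were absent from the longest coding transcripts of other genes. Other isoforms, non-coding genes and the genome were not searched. Besides Ctgf, Yap1 shares 2.78% and Tead2 0.114% of exon bases with a gene on the opposite strand.

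The 10 genes and all lists were chosen with earlier results of these data known. All 10 genes are described. From each gene list, up to 6 called genes and the 2 uncalled genes of largest log2 fold change are named. The untested genes, single markers, Tead3, Tead4, Igfbp3 and Gm15270 were named after their values were seen. Replicates differed beyond counting noise (chi-square per degree of freedom 45.1 to 107.7). Alternatives were other scalings and filters, limma-voom 3.58.1, DESeq2 1.42.0 (the study's tool), a newer quasi-likelihood version, a replicate block and leaving out each library.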

Additional observations from a re-analysis of the deposited data

How the results depend on the processing

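edgeR called 2612 genes, 61.4% of them higher, and DESeq2's Wald test called 4882. Scaling by library size alone called 3647, 81.8% of them higher, and moved the median log2 fold change over the tested genes from 0.02 to 0.29. The number of the 10 genes called stayed between 3 and 6 under all scalings, filters and tools. Library size alone added Wwtr1 (adjusted p = 0.0452) and Ctgf, called 4 kinases and scaffolds, 5 TEAD partners and LATS antagonists and 6 other targets, and turned Amotl2 to 0.19. Upper quartile scaling called 2 kinases and scaffolds and 1 TEAD partner, the Wald test 3 of each and 5 other targets, and limma-voom 1 relative of the targets. Leaving out 1 library gave 0 to 5332 calls over all genes, 0 to 5 of the 10 genes, 0 to 5 kinases and scaffolds, 0 to 3 TEAD partners, 0 to 6 other targets and 0 to 5 relatives. The high ends came without knockout replicate 1 and the other libraries gave 0, 0, 0, 73 and 2 calls over all genes. The log2 fold change of Tead1 turned to −0.13 without control replicate 3 and −0.046 without knockout replicate 2, and that of Lats2 to −0.12 and −0.073, and the other libraries left out gave up to 0.18 and 0.21. The causes were not tested. The Wwtr1 to Yap1 difference kept its direction, from 0.14 to 0.41 on the log2 scale, without any 1 library. Sign flips over the 3 numbered pairs gave p = 0.25, the smallest an exact test of 3 pairs can give, so this fit could not reach the threshold.

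Whether the replicate numbers pair the libraries is not known. Deviations from the group means correlated at −0.13, 0.01 and 0.21 for same-numbered libraries and at −0.25 to 0.22 for differently numbered ones. With 3 libraries a group, these values cannot settle it. With the replicate block, 0 of all genes, and so 0 of the 10 genes and of every list, passed in edgeR, with 5432 genes at an unadjusted p under 0.05. The 4 called genes then had adjusted p from 0.0713 to 0.114.

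Among the single-gene values of the 10 genes over these alternatives, 116 kept their direction and side of the threshold, 25 lost and 4 gained the call and 5 turned. With 3 libraries a group, the interval on the fold of the uncalled genes ran from 1.40 to 10.1 for Ctgf and from 0.855 to 1.32 for Yap1.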
